A study of Mus musculus with 6 samples.

Results

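The genes described here are the metalloproteases of the matrix and cell surface and their inhibitors, measured in cultured mouse oligodendrocyte progenitor cells (OPCs), which divide and give rise to the myelin-forming glia. Members were taken by name alone, as every mouse gene whose symbol starts with Mmp, Adam, Adamts, Adamtsl or Timp followed by a number. This gave 85 genes, of which 71 were listed in at least 1 library and 42 were expressed strongly enough to be tested, among 18749 genes listed and 12782 tested in all. The study set 3 samples of OPCs exposed to 50 µM hemin, the oxidised iron-bearing form of heme, for 12 h against 3 samples given 0.25% DMSO, the vehicle, for as long. All samples are wild-type C57BL/6 cells from the cortex of newborn pups, labelled as postnatal day 1 and in the growth protocol as postnatal day 0 to 2, purified with magnetic beads against CD140 (PDGFRα), a growth factor receptor of OPCs, and grown for 3 days. No label says that the samples of a group came from separate litters or cultures, so p-values measure no more than how far these samples differ, which can be technical.

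Metalloproteases share a zinc ion in their active site. Matrix metalloproteinases (MMPs) are either secreted or, as membrane-type MMPs, anchored at the cell surface, and cut matrix proteins and other proteases. ADAMs are membrane proteases that release the outer part of other surface proteins, although several members have lost the active site and serve in adhesion. ADAMTSs are secreted relatives that cut proteoglycans and procollagens, and ADAMTS-like (ADAMTSL) proteins resemble them but lack the protease domain. Tissue inhibitors of metalloproteinases (TIMPs) block MMPs and, for some pairs, ADAMs and ADAMTSs. In brain injury these proteases are known for opening the blood-brain barrier and for remodelling the proteoglycan-rich matrix around progenitors.

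The expected counts that the authors gave each transcript were summed per gene and came to 6463460 to 6523639 over all genes in the hemin libraries and to 6339966 to 6390691 in the vehicle libraries. The members took up 11911, 12469 and 12010 of these counts in hemin replicates 1 to 3, against 15569, 14879 and 14172 in vehicle replicates 1 to 3. Levels are given in FPKM, the authors' reads scaled by transcript length and library size. A gene is called changed where the edgeR quasi-likelihood test gave a Benjamini-Hochberg adjusted p below 0.05 over all genes tested, and log2 fold changes are hemin over vehicle with their standard error (SE). Of the 8 OPC markers looked at, 8 were expressed, and their summed level was 389 to 592 FPKM with hemin and 1205 to 1450 FPKM with vehicle, with 7 called lower and 0 higher. Markers of astrocytes summed to 407 to 541 FPKM with hemin and 509 to 588 FPKM with vehicle, with 1 of 8 called higher and 3 lower. Over all genes tested, 16.2% were called higher and 15.7% lower. In bulk RNA, fewer cells of a type and less RNA per cell cannot be told apart.

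With hemin, members changed in both directions. The secreted protease Adamts1 rose 4.85-fold and the inhibitor Timp1 rose 2.09-fold, while the membrane-type protease Mmp15, the member with the highest level, fell 2.01-fold, and 3 further membrane-type MMPs fell with it. In all, 5 members were called higher (16.2% of all genes tested were) and 7 lower (15.7% of all genes tested). Together these were 12 of 42, or 28.6%, where 31.9% of all tested genes were called, a share near that background. The median log2 fold change of the 42 was -0.02, against 0.002 over all genes tested. The expected counts of the groups did not overlap for 19 of the 42, where 49.2% of all genes tested did not. The number called lower was 1 without vehicle replicate 1 or 2 and 4 without hemin replicate 2 or 3, and the number called higher was 11 with DESeq2 or with no filter on low counts.

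**Figure D1:**
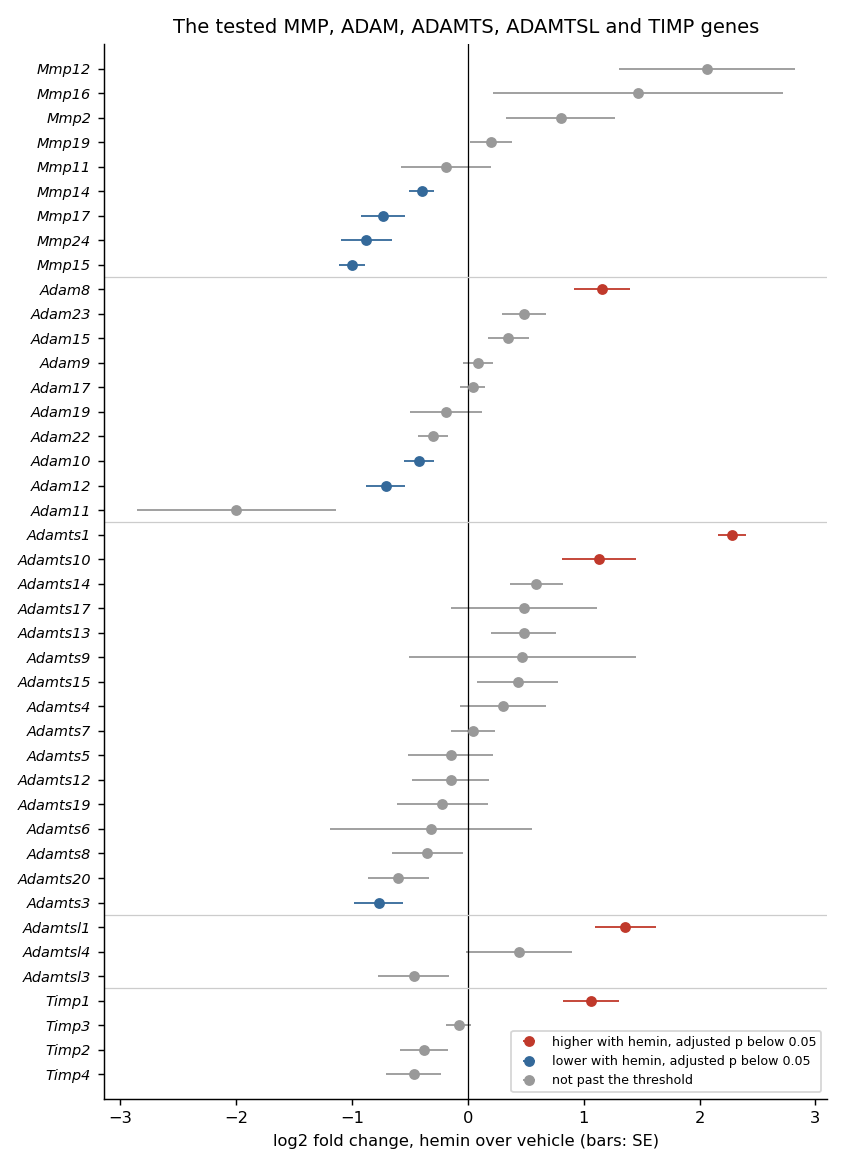
Log2 fold changes, hemin over vehicle, of the 42 tested genes (x axis), with bars of 1 SE (3 libraries a group) and a row per gene, grouped from the top as MMP, ADAM, ADAMTS, ADAMTSL and TIMP. Red marks the 5 genes called higher with hemin, blue the 7 called lower and grey the 30 not past the threshold; Adamts1 lies farthest to the right among the called genes, at 2.28, and Mmp15 farthest to the left, at -1.0.

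Promoter sequences are shown for the strongest called rise (Adamts1), the one inhibitor that rose (Timp1) and the strongest called fall (Mmp15), followed by the secreted MMPs Mmp12 and Mmp13, which carry an AP-1 motif. AP-1, the dimer of FOS and JUN proteins, is the textbook inducer of collagenase and stromelysin genes. Each line holds the 250 bases before the annotated start, 5′ to 3′ on the strand of the gene, from RefSeq on build GRCm38.p6. The positions are chr16:85803114-85803363, minus strand, for Adamts1, chrX:20869916-20870165, plus strand, for Timp1, chr8:95352046-95352295, plus strand, for Mmp15, chr9:7347124-7347373, plus strand, for Mmp12 and chr9:7272264-7272513, plus strand, for Mmp13. For Mmp12 the table holds a further window without the motif. Capitals mark the AP-1 motif TGANTCA on either strand.
Adamts1: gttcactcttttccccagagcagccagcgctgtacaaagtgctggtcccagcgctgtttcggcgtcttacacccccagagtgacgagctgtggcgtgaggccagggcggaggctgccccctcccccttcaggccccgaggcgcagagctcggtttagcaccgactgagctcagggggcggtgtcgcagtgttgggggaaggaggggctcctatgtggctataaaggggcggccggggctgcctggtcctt
Timp1: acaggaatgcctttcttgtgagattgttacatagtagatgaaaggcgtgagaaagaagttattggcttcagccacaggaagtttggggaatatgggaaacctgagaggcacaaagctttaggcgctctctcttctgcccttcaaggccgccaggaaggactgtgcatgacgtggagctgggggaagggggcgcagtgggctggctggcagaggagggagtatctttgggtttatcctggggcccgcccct
Mmp15: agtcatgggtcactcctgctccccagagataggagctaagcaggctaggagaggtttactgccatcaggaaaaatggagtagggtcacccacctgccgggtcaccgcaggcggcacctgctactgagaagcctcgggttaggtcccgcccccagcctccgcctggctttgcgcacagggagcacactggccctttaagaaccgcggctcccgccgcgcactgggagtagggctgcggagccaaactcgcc
Mmp12: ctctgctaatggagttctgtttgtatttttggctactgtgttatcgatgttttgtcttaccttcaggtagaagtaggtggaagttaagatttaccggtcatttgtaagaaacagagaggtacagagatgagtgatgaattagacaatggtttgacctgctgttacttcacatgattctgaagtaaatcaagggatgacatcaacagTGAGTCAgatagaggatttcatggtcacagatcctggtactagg
Mmp13: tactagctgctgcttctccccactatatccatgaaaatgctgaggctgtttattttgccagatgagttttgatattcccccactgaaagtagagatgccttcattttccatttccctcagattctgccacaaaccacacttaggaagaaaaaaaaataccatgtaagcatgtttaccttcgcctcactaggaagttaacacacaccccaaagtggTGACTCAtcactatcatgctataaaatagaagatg

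RefSeq promoter windows, from 250 bases before to 50 after a start, were at hand for 54 of the 85 members, 8 of the 12 called ones among them. TGANTCA was found in 8 of 15 windows of secreted MMPs, those of Mmp13, Mmp12, Mmp1b, Mmp3, Mmp1a, Mmp10, Mmp20 and Mmp7, all on chromosome 9. It was found in 7.81% of all 32851 promoter windows. In these 8 genes its first base lay between 95 and 35 bases before the start (positions -95 to -35). It was in 0 of 4 windows of membrane-type MMPs, 0 of 10 of ADAMTSs, 0 of 4 of TIMPs and 0 of 8 windows of called members. It was also in 5 of 20 windows of ADAMs (25.0%), those of Adam19, Adam1b, Adam20, Adam25 and Adam29, which made 13 of 59 member windows in all (22.0%). Of these, Adam19 was expressed at 6.07 ± 1.89 FPKM with hemin and 7.22 ± 2.28 FPKM with vehicle (SD, n = 3 each). The 8 MMPs with the motif were expressed at low level or not at all. Mmp12 had 34, 37 and 38 expected counts with hemin against 0, 15 and 12 with vehicle. Mmp13 had 0.80, 14.14 and 4.52 against 0, 0 and 0. Over the 3 libraries of a group, Mmp3 had 18 counts with hemin and 16 with vehicle, and Mmp10 had 6 with hemin and 1 with vehicle. Mmp1a and Mmp1b had 2 counts each with hemin and 0 with vehicle, and Mmp20 and Mmp7 were listed in no library. The core of the antioxidant response element, TGACNNNGC on either strand, which is bound by NRF2, was in 9 of 59 member windows (15.3%), near the 12.4% of all windows. The 9 were those of Adam1b, Adam34, Adamts2, Adamtsl5, Mmp15, Mmp21, Mmp24, Timp2 and Timp4, of which Mmp15 and Mmp24 were called lower. The heat shock motif GAANNTTC on either strand was in 0 of the 8 windows of called members and in 7.86% of all. A match is a string of letters and was not tested as a binding site.

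Membrane-type MMPs were the part of the MMP family that these cells expressed most. With hemin, 4 of the 5 tested members were called lower, where 15.7% of all genes tested were. None of the 5 was called higher. Their summed level was 55.0, 68.1 and 62.3 FPKM in hemin replicates 1 to 3, against 122, 111 and 108 FPKM in vehicle replicates 1 to 3, so the groups were apart. Mmp15 (gene identifier 17388 in the files), the membrane-type 2 enzyme, had 33.2, 44.1 and 40.0 FPKM with hemin, against 87.1, 78.3 and 78.0 FPKM with vehicle. Each hemin library was thus below each vehicle library, and the means were 39.1 ± 5.50 and 81.1 ± 5.19 FPKM (SD, n = 3 each; log2 fold change -1.0 ± 0.11 SE, edgeR adjusted p = 0.00101). It made up 51.5 to 56.8% of the summed MMP level with hemin and 66.8 to 67.5% with vehicle. Mmp14 (17387), the membrane-type 1 enzyme that activates the secreted gelatinase MMP2, had 16.8, 17.7 and 15.7 FPKM with hemin, against 23.6, 24.4 and 20.6 FPKM with vehicle, a smaller fall of 1.32-fold (log2 fold change -0.40 ± 0.11 SE, edgeR adjusted p = 0.0279). Its groups did not overlap either.

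The other members of the class that fell were expressed at lower level. Mmp24 (17391), the membrane-type 5 enzyme of neurons, had 2.14, 2.16 and 3.62 FPKM with hemin, against 5.47, 4.50 and 5.03 FPKM with vehicle (1.84-fold lower, edgeR adjusted p = 0.0216). Mmp17 (23948), the membrane-type 4 enzyme held by a lipid anchor, had 2.69, 3.00 and 2.37 FPKM with hemin, against 5.68, 4.25 and 4.00 FPKM with vehicle (1.66-fold lower, edgeR adjusted p = 0.0237). In both genes all hemin libraries lay below all vehicle libraries. In GENCODE vM21, 13.6% of the exon bases of Mmp24 are shared with BC029722 on the opposite strand, which stood at 6.28 ± 2.12 FPKM with hemin and 10.2 ± 0.974 FPKM with vehicle (SD, n = 3 each). No source used here says whether the protocol keeps strand, so reads of the pair cannot be told apart. Markers of neurons had a lower sum in the same libraries, at 90.1 to 135 FPKM with hemin and 186 to 216 FPKM with vehicle. Of the 8 markers 3 were called lower, Tubb3, Neurod6 and Dcx, where 15.7% of all genes tested were. Snap25 went the other way without a call, at 28.2 ± 3.78 FPKM with hemin and 24.6 ± 3.71 FPKM with vehicle. The part of neurons in the Mmp24 value was not tested. Mmp16, the membrane-type 3 enzyme, was tested but not called, with 0, 31.71 and 14.02 expected counts with hemin and 4.15, 0 and 13.31 with vehicle, and the zeros can be failed estimates of the counting. Mmp25, the membrane-type 6 enzyme of white blood cells, was too low to be tested, with 5, 13 and 9 counts with hemin and 0, 0 and 1 with vehicle, a ratio of 26.4 with a 95% counting interval of 4.35 to 1080. The calls of Mmp14, Mmp17 and Mmp24 were each lost without vehicle replicate 1 (edgeR adjusted p = 0.104, 0.0887 and 0.0796) and without vehicle replicate 2 (0.12, 0.0551 and 0.0505). Mmp14 was also lost without hemin replicate 2 or 3 (0.0575 and 0.0688), Mmp17 without hemin replicate 3 (0.0622) and Mmp24 without hemin replicate 2 or vehicle replicate 3 (0.0698 and 0.0621), all edgeR adjusted p-values. Mmp15 kept its call in all 15 alternatives tried.

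**Figure D2:**
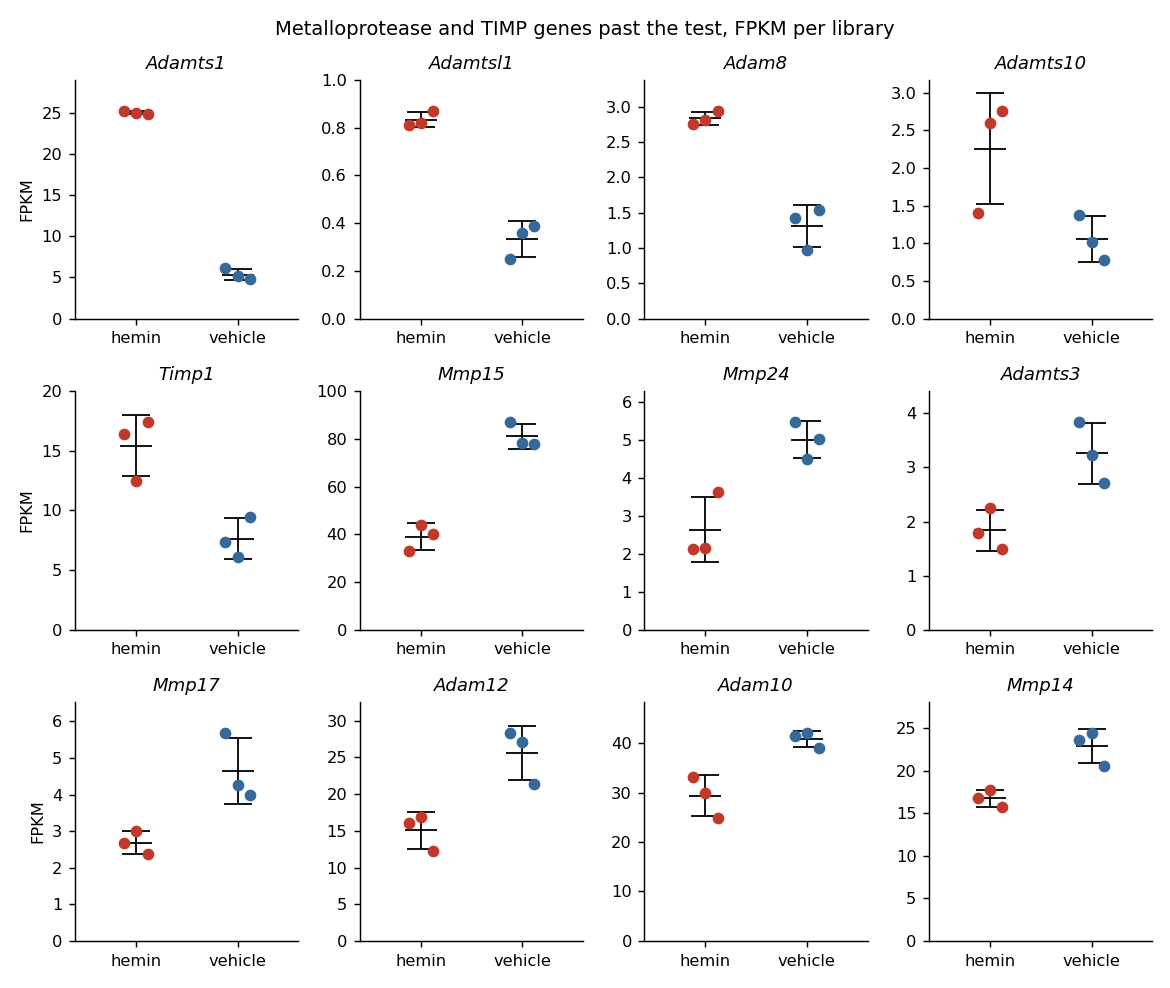
FPKM (y axis, from 0) of the 12 called genes, a panel each, in 3 hemin (red, left) and 3 vehicle (blue, right) libraries, with the mean and SD in black; the first 5 panels are genes called higher with hemin and the other 7 genes called lower. Adamts1 lies at 24.8 to 25.2 FPKM with hemin and 4.78 to 6.10 with vehicle, and in no panel do the groups overlap.

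Secreted MMPs were sparse in these cultures, and 0 of the 4 tested were called by edgeR. At an unadjusted p below 0.05 edgeR gave 1 of the 4, Mmp12, and DESeq2 and limma each called that gene. Together the secreted MMPs summed to 9.18, 9.38 and 11.4 FPKM with hemin, against 6.86, 5.89 and 7.63 FPKM with vehicle. Mmp19, a broadly expressed enzyme of basement membranes, stood at 4.28 ± 0.532 FPKM with hemin and 3.91 ± 0.463 FPKM with vehicle (SD, n = 3 each; edgeR adjusted p = 0.442), and shares 22.3% of its exon bases in GENCODE vM21 with Tmem198b on the opposite strand. Mmp12, the macrophage metalloelastase, had 1.04, 1.16 and 1.20 FPKM with hemin and was listed at 0, 0.46 and 0.37 FPKM with vehicle. Its groups did not overlap, but it missed the threshold in edgeR (log2 fold change 2.06 ± 0.76 SE, adjusted p = 0.0758) and passed it in DESeq2 (adjusted p = 0.0406), in limma on log2(FPKM + 1) (0.0123) and in edgeR without vehicle replicate 1 (0.0267). It had passed the filter on low counts through the hemin libraries alone, which favours higher values there, so these values are no support for a rise. Markers of microglia and macrophages were higher in the same libraries, with a summed level of 60.1 to 63.6 FPKM with hemin and 31.0 to 45.0 FPKM with vehicle. Of 9 tested markers 3 were called higher, Cd68, Ctss and Itgam, where 16.2% of all genes tested were. None of the 12 markers was at 0 throughout, and their part in the Mmp12 value was not tested.

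The gelatinases, which degrade type IV collagen and are the best known MMPs of haemorrhagic brain injury, gave no call in the filtered test. Mmp2 (17390), gelatinase A, had 1.27, 1.96 and 4.09 FPKM with hemin and 1.25, 0.95 and 2.10 FPKM with vehicle (edgeR adjusted p = 0.238). Replicate 3 was the highest library in both groups. Markers of fibroblasts and mural cells had the same highest libraries, with a summed level of 8.23, 9.86 and 22.7 FPKM with hemin and 8.73, 5.98 and 13.3 FPKM with vehicle, and 0 of 6 tested markers called by edgeR or DESeq2, with 0 at an unadjusted p below 0.05 in either. Their part in the Mmp2 value was not tested. Mmp9, gelatinase B, was too low to be tested, with 14, 14 and 7 counts with hemin and 3, 2 and 2 with vehicle, a ratio of 4.89. With no filter on low counts it was called higher, with an edgeR adjusted p of 0.0142. Mmp2, Mmp9, Mmp12 and Mmp16 are described here because of their roles or after their values were seen, not by the rule for named members.

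ADAMs carried the highest summed protease level, at 136, 134 and 121 FPKM in hemin replicates 1 to 3, against 155, 152 and 135 FPKM in vehicle replicates 1 to 3, and these sums overlapped. Of the 10 tested, 1 was called higher and 2 lower. Adam10 (11487), the alpha-secretase that sheds amyloid precursor protein, Notch receptors and N-cadherin, had 33.2, 29.9 and 24.9 FPKM with hemin, against 41.4, 42.0 and 38.9 FPKM with vehicle. It fell 1.34-fold with no overlap (log2 fold change -0.42 ± 0.13 SE, edgeR adjusted p = 0.0463), a call at the edge of the threshold. Leaving out hemin replicate 2 or 3 ended the call (edgeR adjusted p of 0.111 and 0.073), as did leaving out vehicle replicate 1, 2 or 3 (0.123, 0.132 and 0.0862). Adam17 (11491), the converting enzyme of tumour necrosis factor and the sheddase of most EGF family ligands, had 17.6, 18.5 and 15.2 FPKM with hemin, and 17.0, 17.0 and 17.5 FPKM with vehicle. Its groups overlapped (log2 fold change 0.04 ± 0.11 SE, edgeR adjusted p = 0.796). Whether Adam10 and Adam17 differed in their change was not tested.

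Adam12 (11489), a protease of growing muscle, bone and glia that binds syndecans and integrins, had 16.1, 16.9 and 12.2 FPKM with hemin, against 28.3, 27.1 and 21.4 FPKM with vehicle. All hemin libraries were lower, and the fall of 1.64-fold passed (log2 fold change -0.71 ± 0.17 SE, edgeR adjusted p = 0.0156), a call lost without vehicle replicate 1 or 2 (0.0608 and 0.0577). Adam8 (11501), a protease of white blood cells and of activated glia, rose 2.23-fold. Its level was 2.75, 2.81 and 2.94 FPKM with hemin, against 1.42, 0.97 and 1.54 FPKM with vehicle, without overlap (log2 fold change 1.16 ± 0.24 SE, edgeR adjusted p = 0.00951). The microglial markers given beside Mmp12 moved in the same direction as Adam8, and their part was not tested. Adam9 (11502), a widely expressed sheddase and together with Adam10 the ADAM of highest level, had 35.9, 36.9 and 31.0 FPKM with hemin and 35.7, 36.7 and 28.7 FPKM with vehicle (edgeR adjusted p = 0.619). Adam15 (11490), which binds integrins, had 14.7, 14.6 and 21.6 FPKM with hemin and 13.4, 12.1 and 15.4 FPKM with vehicle (edgeR adjusted p = 0.163). Both overlapped between the groups. In GENCODE vM21 20.6% of the exon bases of Adam15 are shared with an antisense gene.

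Adam11, Adam22 and Adam23, neuronal ADAMs without a working active site, were tested and not called by edgeR, although Adam23 had an unadjusted p of 0.0351. Adam22 and Adam23, receptors of the synaptic protein LGI1, stood at 3.70 ± 0.495 and 2.08 ± 0.430 FPKM with hemin and at 4.73 ± 0.396 and 1.53 ± 0.0603 FPKM with vehicle (SD, n = 3 each; edgeR adjusted p = 0.119 and 0.0885). Adam11, of the same neuronal group, was listed at 0, 0.26 and 0.60 FPKM with hemin and at 1.64, 1.16 and 0.79 FPKM with vehicle (edgeR adjusted p = 0.116), and limma on log2(FPKM + 1) gave an adjusted p of 0.0277. Adam11 had passed the filter on low counts through the vehicle libraries alone, which favours lower values with hemin, so these values are no support for a fall. Adam19, a protease that cuts neuregulin, had 7.77, 6.42 and 4.03 FPKM with hemin and 9.33, 7.52 and 4.8 FPKM with vehicle, with replicate 3 the lowest in both groups.

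ADAMTS proteases had a summed level of 39.3, 42.1 and 42.0 FPKM with hemin, against 22.9, 20.8 and 18.9 FPKM with vehicle, without overlap. Adamts1 (11504), a protease of versican and other proteoglycans that also binds the growth factor VEGF, had 25.2, 25.0 and 24.8 FPKM with hemin, against 6.10, 5.15 and 4.78 FPKM with vehicle. In expected counts these were 1129, 1097 and 1080 with hemin and 269, 229 and 214 with vehicle. The 4.85-fold rise was far larger than the spread between replicates (25.0 ± 0.196 and 5.34 ± 0.681 FPKM, SD, n = 3 each; log2 fold change 2.28 ± 0.12 SE, edgeR adjusted p = 0.000162), and it passed in all 15 alternatives. Adamts1 made up 59.0 to 64.1% of the summed ADAMTS level with hemin and 24.8 to 26.6% with vehicle. Endothelial cells also make Adamts1, and their markers summed to 6.05 to 7.73 FPKM with hemin and 1.61 to 2.98 FPKM with vehicle. Of 5 tested markers 3 were called higher (Pecam1, Tek and Kdr), where 16.2% of all genes tested were. With vehicle these 3 were at 0.14 to 0.17, 0.02 to 0.05 and 0.1 to 0.22 FPKM. They can have passed the filter on low counts through the hemin libraries alone, so the calls are no support for a rise. The markers Cldn5, Cdh5 and Emcn were too low to be tested. They were at 0 to 0.17, 0.11 to 0.23 and 0.16 to 0.49 FPKM with hemin. With vehicle they were at 0 to 0.25, 0.03 to 0.14 and 0.32 to 0.56 FPKM. The part of endothelial cells in the Adamts1 value was not tested.

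Of the 16 tested ADAMTS genes, 2 were called higher and 1 lower, and 13 did not pass. The called share was 18.8%, where 31.9% of all genes tested were called. Adamts3 (330119), which trims procollagen and inactivates reelin, had 1.78, 2.25 and 1.5 FPKM with hemin, against 3.84, 3.23 and 2.71 FPKM with vehicle. It fell 1.71-fold without overlap (edgeR adjusted p = 0.0261), a call lost without hemin replicate 3 (0.0602) and without vehicle replicate 1 or 2 (0.0986 and 0.0757). Adamts10 (224697), which acts on fibrillin microfibrils, had 1.41, 2.60 and 2.76 FPKM with hemin, against 1.38, 1.02 and 0.78 FPKM with vehicle, 2.19-fold higher (edgeR adjusted p = 0.0317). Its groups came within 0.03 FPKM of each other, and the call was lost in 7 of 15 alternatives. The authors' counting placed 33.6, 78.8 and 73.8 of its counts with hemin, and 13.4, 0 and 29.0 with vehicle, on non-coding transcripts of the gene. Its coding transcript held 18.5, 15.6 and 25.0 counts with hemin and 36.6, 37.2 and 0 with vehicle, so the higher counts with hemin were on the non-coding part, and transcripts that share most of their sequence are hard to split.

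The aggrecanases Adamts4 and Adamts5, which cut the lecticans of brain matrix, gave no call. Adamts4, a marker of maturing oligodendrocytes, stood at 1.24 ± 0.429 FPKM with hemin and 1.05 ± 0.330 FPKM with vehicle, and Adamts5 at 0.843 ± 0.357 and 0.980 ± 0.213 FPKM (SD, n = 3 each; edgeR adjusted p = 0.578 and 0.783). Adamts9 (101401), a further proteoglycanase, varied widely within groups, with 8.87, 20.02 and 151.17 expected counts with hemin and 18.06, 32.96 and 82.68 with vehicle. It had passed the filter on low counts through the vehicle libraries alone. As for Mmp2 and the fibroblast and mural markers, replicate 3 was the highest in both groups. Adamtsl1 (77739), a secreted matrix protein without protease domain, rose 2.57-fold. It had 0.81, 0.82 and 0.87 FPKM with hemin, against 0.25, 0.36 and 0.39 FPKM with vehicle, a low level with no overlap (log2 fold change 1.36 ± 0.26 SE, edgeR adjusted p = 0.00698). The other tested members of the ADAMTSL group, Adamtsl3 and Adamtsl4, did not pass (edgeR adjusted p = 0.279 and 0.506).

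Of the 4 inhibitors, Timp1 was the one called. Timp1 (21857), the inducible TIMP of injured tissue, had 16.4, 12.5 and 17.4 FPKM with hemin, against 7.35, 6.12 and 9.46 FPKM with vehicle. Each hemin library was above each vehicle library, and the rise of 2.09-fold (15.4 ± 2.61 and 7.64 ± 1.69 FPKM, SD, n = 3 each; log2 fold change 1.06 ± 0.24 SE, edgeR adjusted p = 0.0137) passed in all 15 alternatives, with adjusted p-values of 0.00325 to 0.0498. Timp2 (21858), the TIMP of highest level and the partner of MMP14 in activating MMP2, had 24.1, 24.9 and 40.2 FPKM with hemin and 38.1, 34.0 and 47.8 FPKM with vehicle. The groups overlapped through hemin replicate 3 (log2 fold change -0.38 ± 0.21 SE, edgeR adjusted p = 0.205), and without that library Timp2 was called lower (log2 fold change -0.64, edgeR adjusted p = 0.031). Timp2 was also called lower with the replicate number as a block in the test (edgeR adjusted p = 0.0348). Replicate 3 was the highest in both groups here too, as for the fibroblast and mural markers. Timp3 (21859), which binds to the matrix and also inhibits ADAM17 and ADAMTSs, had 15.2, 17.7 and 18.1 FPKM with hemin and 17.8, 20.9 and 17.2 FPKM with vehicle (edgeR adjusted p = 0.598). Timp4 (110595), a TIMP of brain and heart, had 9.29, 18.7 and 17.2 FPKM with hemin and 22.1, 23.2 and 19.3 FPKM with vehicle. Its groups did not overlap, but it did not pass (log2 fold change -0.47 ± 0.24 SE, edgeR adjusted p = 0.179).

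**Figure D3:**
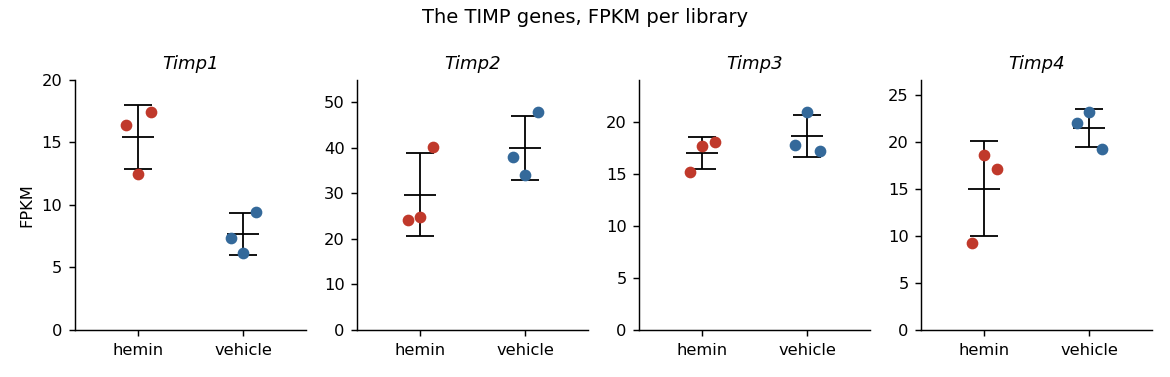
FPKM (y axis, from 0) of the 4 TIMP genes in 3 hemin (red, left) and 3 vehicle (blue, right) libraries, with the mean and SD in black. Timp1 is higher in every hemin library (12.5 to 17.4 against 6.12 to 9.46 FPKM), Timp2 and Timp3 overlap, and Timp4 is lower in every hemin library (9.29 to 18.7 against 19.3 to 23.2 FPKM) without passing the test.

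Timp1, Timp3 and Timp4 lie inside synapsin genes, which code for synaptic vesicle proteins, on the opposite strand. In GENCODE vM21 Timp1 shares 0 exon bases with Syn1, Timp4 shares 1.53% of its own with Syn2 and Timp3 shares 21.3% with Syn3. Syn1 stood at 6.00 ± 0.958 FPKM with hemin and 7.19 ± 0.418 FPKM with vehicle (edgeR adjusted p = 0.3). Syn2 fell to 4.48 ± 0.962 FPKM with hemin, against 7.90 ± 1.74 FPKM with vehicle (SD, n = 3 each; edgeR adjusted p = 0.0262), the direction of the Timp4 values. Syn3 stood at 0.537 ± 0.0404 FPKM with hemin and 0.887 ± 0.662 FPKM with vehicle.

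Set against the inhibitors, MMPs and ADAMTSs differed in opposite directions, while the ratio of all proteases to TIMPs overlapped between the groups. The ratio of summed MMP to summed TIMP level was 0.992, 1.05 and 0.797 in hemin replicates 1 to 3, against 1.51, 1.39 and 1.24 in vehicle replicates 1 to 3. For ADAMTSs over TIMPs it was 0.605, 0.571 and 0.452 with hemin, against 0.269, 0.247 and 0.202 with vehicle. Neither of these overlapped between the groups, the MMP ratio being lower and the ADAMTS ratio higher with hemin. Neither is a shift of a whole family. Adamts1 alone made up 59.0 to 64.1% of the ADAMTS sum with hemin and 24.8 to 26.6% with vehicle, and 13 of 16 tested ADAMTSs were not called. Among MMPs the secreted class summed higher with hemin (9.18 to 11.4 FPKM) than with vehicle (5.89 to 7.63 FPKM). ADAMs over TIMPs stood at 2.09, 1.82 and 1.30 with hemin and 1.82, 1.80 and 1.44 with vehicle. All proteases over TIMPs gave 3.68, 3.44 and 2.55 with hemin and 3.61, 3.44 and 2.88 with vehicle, with means of 3.22 ± 0.598 and 3.31 ± 0.379 (SD, n = 3 each). The TIMPs themselves summed to 65.0, 73.7 and 93.0 FPKM with hemin and 85.3, 84.3 and 93.7 FPKM with vehicle, so the groups overlapped. Within this sum the share of Timp1 was 16.9 to 25.2% with hemin and 7.26 to 10.1% with vehicle. These sums describe transcripts, not active enzyme, and carry no test.

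**Figure D4:**
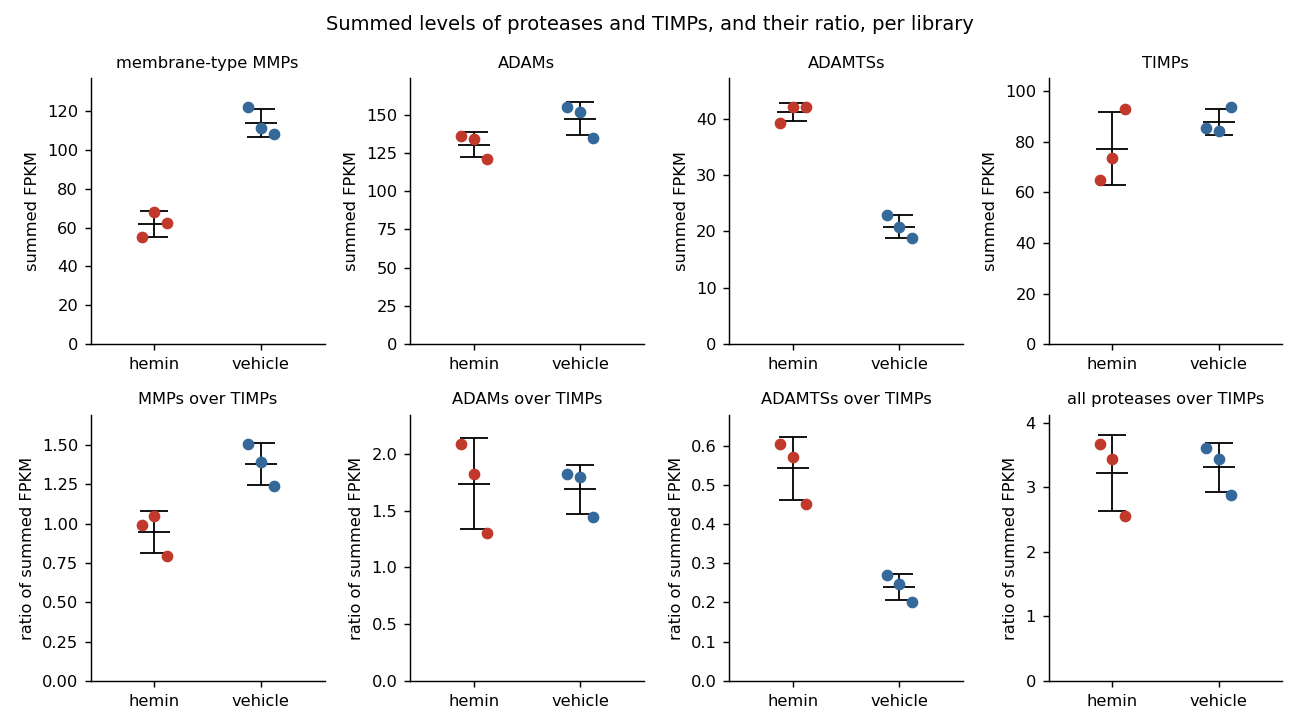
Top row, summed FPKM of the membrane-type MMPs, ADAMs, ADAMTSs and TIMPs; bottom row, the ratio of summed MMP, ADAM, ADAMTS and all protease FPKM to summed TIMP FPKM. Points are the 3 hemin (red, left) and 3 vehicle (blue, right) libraries with mean and SD in black, and y axes start at 0; membrane-type MMPs are lower (55.0 to 68.1 against 108 to 122) and ADAMTSs higher (39.3 to 42.1 against 18.9 to 22.9) with hemin, while all proteases over TIMPs overlap (2.55 to 3.68 against 2.88 to 3.61).

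The remaining 43 members were below the filter. Of these, 14 were listed in no library, namely 12 ADAMs, most of which are known from testis, with Mmp7 and Mmp20. The other 29 reached at most 16.5 counts in a library, and 7 of them were listed with hemin alone and 1 with vehicle alone. The same imbalance held over all 5967 untested genes, with 1991 listed in hemin libraries alone and 365 in vehicle libraries alone. Adam30, an ADAM of testis, had 7, 4 and 10 counts with hemin and 0, 0 and 0 with vehicle, at least 6.85-fold higher when the vehicle group is set to the floor of 3 counts over the group. Adam1b, a sperm surface protein that shares reads with its near-copy Adam1a, had 6.11, 16.46 and 6.97 counts with hemin and 0, 0 and 0 with vehicle, at least 9.78-fold higher by the same floor. Mmp13, collagenase 3, was at least 6.20-fold higher in the same way, from 19 counts over the hemin group. Run without the filter, edgeR called 6 of these 29 higher, namely Adam1b, Adam30, Adam4, Adam5, Mmp25 and Mmp9 (22.0% of all genes were called in that run). DESeq2 called 5 of the 20 for which it gave an adjusted p, again with Adam1b, Adam30, Mmp9 and Mmp25 and with Mmp13 in addition (27.0% of all genes). These genes were named after their values were seen.

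Of 15 tested genes that activate or escort the proteases, 5 were called higher and 1 lower, 40.0% in all where 31.9% of all genes tested were called (16.2% higher and 15.7% lower). Their median log2 fold change was 0.27. The rises were in the plasminogen activation system, which generates plasmin and so activates secreted MMPs, and in partners of ADAM17. Plaur, the receptor of urokinase, rose 26.2-fold to 10 ± 6.53 FPKM with hemin, against 0.397 ± 0.208 FPKM with vehicle, and Plau, urokinase itself, rose 2.43-fold (edgeR adjusted p = 0.0023 and 0.0143). With vehicle Plaur was at 0.16 to 0.55 FPKM and can have passed the filter on low counts through the hemin libraries alone. The fold of Plaur is then no support for a rise. Plat, tissue plasminogen activator, rose 1.75-fold to 69.5 ± 9.46 FPKM, against 41.3 ± 2.93 FPKM with vehicle (edgeR adjusted p = 0.00393). Rhbdf2, an iRhom that carries ADAM17 to the surface, rose 2.99-fold (edgeR adjusted p = 0.0171). It stood at 0.987 ± 0.255 FPKM with hemin, against 0.340 ± 0.121 FPKM with vehicle. Rhbdf1, the other iRhom and the one of higher level, was not called (edgeR adjusted p = 0.352). It stood at 9.82 ± 2.66 FPKM with hemin and 8.41 ± 1.25 FPKM with vehicle. Frmd8, which stabilises Rhbdf2, rose 1.38-fold. The fall was in Pcsk6, a proprotein convertase (1.63-fold, edgeR adjusted p = 0.0186). Furin, the convertase that matures membrane-type MMPs and ADAMs, stood at 8.43, 5.51 and 7.0 FPKM with hemin and 6.05, 5.83 and 6.01 FPKM with vehicle (edgeR adjusted p = 0.257). Of the 4 tested tetraspanins that escort ADAM10, 0 were called by edgeR or DESeq2, and 2 had an unadjusted p below 0.05 in each.

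The list outside the TIMP family holds inhibitors, their relatives and clearance receptors. Of its 10 tested genes that are reported here, 2 were called lower, with a median log2 fold change of -0.32. At 20% called, this lies below the 31.9% of all genes tested. Spock2, a secreted proteoglycan of brain matrix counted here as a relative and not as an inhibitor, fell 1.69-fold (edgeR adjusted p = 0.0185). Lrp1, the receptor that clears MMPs and TIMPs from outside the cell, fell 1.36-fold (edgeR adjusted p = 0.0453). Reck, a membrane-anchored MMP inhibitor, stood at 0.98, 1.18 and 0.69 FPKM with hemin and 0.96, 2.23 and 0.73 FPKM with vehicle.

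Substrates changed in both directions. Of 29 tested genes for proteins shed by ADAM10 or ADAM17, 9 were called higher and 10 lower, 65.5% in all where 31.9% of all genes tested were called (16.2% higher and 15.7% lower), with a median of 0.19. This list and the others were chosen with earlier results of these data known, so such shares are no result about the lists. The called rises included the EGF family ligands Areg (49.3-fold), Ereg (14.5-fold) and Hbegf (3.55-fold, to 52.6 ± 6.51 FPKM with hemin, against 15.3 ± 4.81 FPKM with vehicle), and the prion protein Prnp (1.79-fold). With vehicle Areg was at 0 to 0.2 FPKM and Ereg at 0.05 to 0.08 FPKM. Both can have passed the filter on low counts through the hemin libraries alone, so their folds are no support for a rise. The called falls included Notch1 (1.77-fold, to 14.5 ± 0.666 FPKM with hemin, against 26.6 ± 0.897 FPKM with vehicle), Tgfa, a further EGF ligand (2.25-fold), and the surface proteins of OPCs Cspg4, the NG2 proteoglycan (3.16-fold), and Nlgn3 (2.87-fold). Adjusted p-values of these 8 in edgeR were 0.000464 to 0.00544. Cspg4 and Ptprz1 are also among the OPC markers.

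Of 24 tested matrix substrates, 7 were called higher and 3 lower, 41.7% in all where 31.9% of all genes tested were called (16.2% higher and 15.7% lower), with a median of 0.84. Laminin chains of the basement membrane were among the rises, Lamc1 by 1.92-fold to 34.3 ± 5.61 FPKM with hemin, against 18.6 ± 0.769 FPKM with vehicle, and Lama4 by 1.93-fold. Thbs1, thrombospondin 1, rose 8.25-fold and Fbn2, fibrillin 2, rose 2.69-fold (edgeR adjusted p of these 4, 0.00329 to 0.00852). The 3 called lower were Ncan, neurocan, a proteoglycan of brain matrix, 1.79-fold lower at 112 ± 18.7 FPKM with hemin and 208 ± 6.41 FPKM with vehicle, Dag1, dystroglycan, a membrane receptor for laminin, 1.71-fold lower and Tnr, tenascin R, 3.47-fold lower (edgeR adjusted p = 0.00228, 0.000931 and 0.0195). Versican and brevican, the lecticans cut by ADAMTS1 and ADAMTS4, were not called: Vcan had 18.9, 24.8 and 21.7 FPKM with hemin and 28.1, 26.0 and 19.2 FPKM with vehicle, and Bcan 65.1, 80.7 and 101 FPKM with hemin and 105, 105 and 89.1 FPKM with vehicle.

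**Figure D5:**
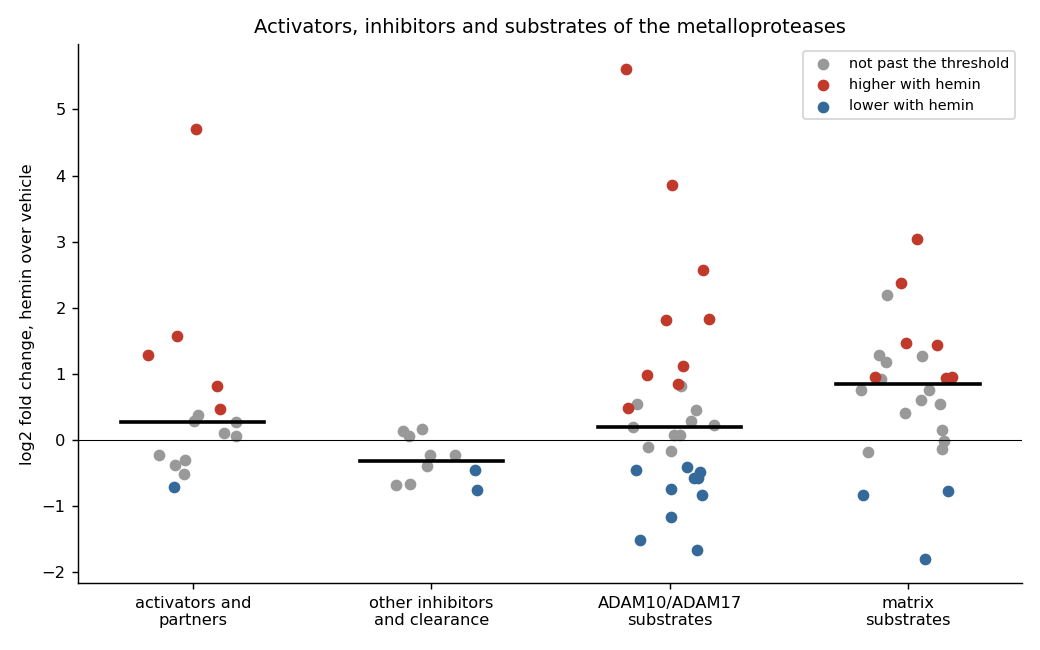
Log2 fold changes, hemin over vehicle (y axis), of the tested genes of 4 lists (x axis), a point per gene, red where called higher with hemin, blue where called lower and grey where not past the threshold, with the median as a black line. The medians lie at 0.27, -0.32, 0.19 and 0.84, and the highest point of the activators and partners, Plaur, at 4.71.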

How the data were processed

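RNA of cultured mouse OPCs was sequenced in 3 hemin and 3 vehicle samples, grouped by their titles. Expected counts and FPKM per annotated transcript were taken as deposited by the authors, per the file headers. Reads went through Bowtie 0.12.2 and RSEM, per the submitters' processing notes, which list both mm8 and mm9 without saying what each was for. For trimming, strand and annotation release: not given in the sources used here. Tables of unannotated features were not used.

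Transcripts were summed per gene, symbols matched by gene identifier in RefSeq (GRCm38.p6; 18710 of 18749 genes), and genes absent from a table set to 0. Expected counts were rounded before testing. The main results came from edgeR 4.0.16 under R 4.3.3 (filterByExpr by group, TMM, glmQLFit, glmQLFTest, no covariates, two-sided, Benjamini-Hochberg over 12782 genes). The SE is the size of the log2 fold change over the square root of F. Of the 42 tested members, 31 passed the filter in both groups. The fits were tested on simulated data. Libraries of a group differed by more than counting noise (chi-square per degree of freedom 5.51 to 23.8). Counting intervals and floors cover counting error only.

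Alternatives were other size factors, no filter, DESeq2 1.42.0, limma 3.58.1 on log2(FPKM + 1) or log2(FPKM + 0.1) for genes of at least 0.5 FPKM in a group, the replicate number as a block and leaving out each library. Members named in full are all called ones, the TIMPs and, of the uncalled, the 6 highest in FPKM. From each list up to 4 called genes a direction are named, by smallest p. In the list of other inhibitors 1 gene is not reported here and is left out of its counts, median and plot. The members, lists and roles were chosen with earlier results of these data known.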

Additional observations from a re-analysis of the deposited data

How the results depend on the processing

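Adamts1, Mmp15, Adamtsl1, Adam8 and Timp1 kept their direction and their side of the threshold in each of 15 alternatives. Among members called lower, the number depended on single libraries. Leaving out each library in turn gave 1 to 7 members lower, 4 to 7 higher, 6 to 13 in all, and 2552 to 4530 genes called over the whole table, where all 6 libraries gave 7, 5, 12 and 4078. Without vehicle replicate 1 or vehicle replicate 2 the lower count was 1, and the whole table gave 2598 and 2552 calls; without hemin replicate 2 or 3 it was 4. Members called higher numbered 11 with no filter in edgeR, 11 with DESeq2 and 11 with limma on log2(FPKM + 1) without a filter, which test more low members by construction. Mmp12, not called in edgeR, passed with DESeq2, all limma settings and without vehicle replicate 1. Adamts10 missed the threshold with limma at a pseudocount of 0.1 (adjusted p = 0.0542). Scaling by totals alone moved the median over all genes to -0.09 and the share of higher among all calls to 39.9%, against 50.8%, and left 5 members higher and 7 lower. Among uncalled members, the sign turned for Adam9 with totals alone (-0.0011), for Timp3 without vehicle replicate 2 (leaving out each library gave -0.114 to 0.0185) and for Adam17 with totals alone (-0.0492), with limma (-0.0114 at a pseudocount of 1 with or without the filter, -0.0122 at 0.1) and without hemin replicate 1 or 2 (-0.0092 to 0.138 over all libraries left out). The ratio of all proteases to TIMPs, hemin over vehicle, was 0.975 in FPKM and 1.01 in counts, and the cause of these shifts was not tested.

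Whether the replicate numbers pair the samples is not known. Over genes, the deviations of same-numbered libraries from their group means correlated weakly (0.0647, 0.0998 and 0.158). Each hemin library nevertheless correlated best with the vehicle library of its own number. With the replicate number as a block, 12 members were called, 4 higher and 8 lower, Timp2 among them (adjusted p = 0.0348). At 6339966 to 6523639 counts a library, members of at most 16.5 counts rest on few reads.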
